A study of Mus musculus with 6 samples.

Results

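Enzymes that add or remove methyl and acetyl groups on histones were followed across mouse embryonic stem (ES) cells that had lost the cohesin subunit Rad21. The genes were taken by symbol from 7 name families, Kmt, Setd, Prmt, Kdm, Kat, Hdac and Sirt, each followed by a digit, without Hdac8. This gave 67 genes on 74 probe sets, out of 19938 genes on 21789 probe sets with a single gene symbol. Not all of them modify histone lysines. The 8 Prmt genes encode arginine methyltransferases, Setd3 methylates a histidine of actin, Hdac6 deacetylates tubulin in the cytoplasm, and Sirt3, Sirt4 and Sirt5 act in mitochondria. The rule uses symbols and no measured value, but it was set with earlier results of these data known.

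The cells of interest carried Scc1 lox/lox with ERT2-Cre, and the control cells Scc1 wt/wt with ERT2-Cre, with 3 arrays of each. Scc1 is another name of Rad21. ERT2-Cre is a recombinase that moves into the nucleus on 4-hydroxytamoxifen (4-OHT), and both genotypes had been given 80 nM 4-OHT for 24 h. The sample labels give this dose, whereas the design text has it in mM. Both were female ES cells of a mixed C57BL/129 background, derived and cultured in 2i, a pair of kinase inhibitors, with LIF. The design text calls the samples biological replicates without saying how the cultures were separated or how many lines were used, so p-values measure the spread between these samples. Cells without 4-OHT were not analysed here, so the loss of Rad21 cannot be told apart from other differences between the lox/lox and wt/wt cells.

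Histone lysine methylation is written by SET-domain enzymes such as the Kmt2 and Setd1 proteins, which act on H3K4 at promoters and enhancers. It is erased by the flavin-dependent Kdm1 enzymes and by the JmjC-domain Kdm families, each of which prefers certain lysines. Kat enzymes acetylate lysines, and Hdac enzymes and the NAD-dependent sirtuins take acetyl groups off again. In ES cells such enzymes are known for keeping pluripotency genes active and developmental genes poised.

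Values are RMA values, log2 intensities summarised per probe set. Rad21 stood at 6.08, 6.06 and 6.14 in lox/lox replicates 1 to 3, against 10.05, 9.99 and 10.01 in wt/wt replicates 1 to 3. The targeted gene thus fell 15.2-fold, with a log2 change of -3.92 (SE 0.07, adjusted p = 1.57e-09 in limma, n = 3 per genotype). Array medians lay between 4.85 and 4.94, and correlations within a genotype over all genes between 0.9951 and 0.9969. On the main component of the deviations from the genotype means, lox/lox replicate 3 and wt/wt replicate 2 stood apart, with loadings of 0.549 and 0.568 against -0.463 to -0.105 for the other arrays. On lox/lox replicate 3, 52 of the 67 enzyme genes lay above their lox/lox mean, and on wt/wt replicate 2, 41 lay above their wt/wt mean. The number of arrays, 3 per genotype, limits the precision.

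ES cell markers were high on every array. Of 9 markers, all lay above 4.90, the median of all deposited values, and their summed level was 95.23 to 96.76 in lox/lox cells and 98.99 to 99.69 in wt/wt cells. Of these markers 4 fell at an adjusted p under 0.05 in limma (44.4%, against 6.16% of all genes), Klf4, Sox2, Nanog and Esrrb, at log2 changes of -1.23, -0.48, -0.55 and -0.34, and Pou5f1 at -0.16 did not pass (adjusted p = 0.275). All 9 had a change below 0, 8 had an unadjusted p under 0.05 (88.9%, against 18% of all genes), and in 8 the lox/lox and wt/wt arrays did not overlap (88.9%, against 22.8%). These lower marker levels run beside each of the decreases described here, and their part in them was not tested. The 16 fibroblast markers, which would show feeder cells, had sums of 88.69 to 90.77 in lox/lox cells, against 87.44 to 90.42 in wt/wt cells. None was called in limma, against 6.16% of all genes, and 2 had an unadjusted p under 0.05 (12.5%, against 18%). Both of these genes, Vim and Dcn, were higher on every lox/lox array, with log2 changes of 0.24 and 0.21 (adjusted p = 0.161 and 0.175), and 11 of the 16 markers had a change above 0. Of the 16 fibroblast markers 9 had a mean above 4.90, and Vim was high, at a mean of 11.80 in lox/lox cells, against 11.56 in wt/wt cells. The collagen-binding gene Lum was among the lowest, at a mean of 2.996 in lox/lox cells, against 2.998 in wt/wt cells, and Dcn lay at 3.67 against 3.45. Of 6 primitive endoderm, 4 neural and 5 trophectoderm markers none was called either, although lists this short can show little. An unadjusted p under 0.05 was found in 0, 1 and 0 of them, against 18% of all genes. A change above 0 was found in 4, 4 and 2 of them. In bulk samples a lower level in each cell and fewer cells of a type cannot be told apart.

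In lox/lox cells 6 of the 67 enzyme genes fell and none rose. They were Prmt8, Kmt2c, Kdm5b, Kdm3b, Hdac7 and Setd7, lower by 1.23-fold to 1.64-fold. A call is a p-value from limma under 0.05 after Benjamini-Hochberg adjustment across the 19938 genes, where 6.16% of genes passed, 3.61% lower and 2.55% higher. Against these, 8.96% of the enzyme genes passed, all of them lower. Most enzyme genes are well expressed: 61 of 67 (91%) had a mean above 4.90, against 57.2% of all genes. Among genes above that level 10% passed, and among the 61 enzyme genes 6.56% did, 4 genes in all. By direction the shares among such genes were 6.56% against 5.93% for lower and 0% against 4.11% for higher calls. A change of at least 1.5-fold was called in 2 enzyme genes, Prmt8 and Kmt2c (2.99%, against 2.26% of all genes). The share of called enzyme genes is thus near the background. With quantile normalization or cyclic loess 6 enzyme genes were lower and 2 higher, the additions being Kdm4c and Kat14.

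The promoter windows of 5 of the 6 called genes are shown because they differ in base composition although the genes moved the same way. Kdm3b was left out without regard to its base composition. The first-listed window of each of the 5 genes is given, and Hdac7 and Prmt8 have further windows. Each runs from 250 bases before to 50 bases after a RefSeq start site in GRCm38.p6, 5′ to 3′ on the gene's strand. Capitals mark GGGCGG, the GC box, and AGGGGGC, letters within the CTCF motif, on either strand.
Prmt8, chr6:127769106-127769405, minus strand: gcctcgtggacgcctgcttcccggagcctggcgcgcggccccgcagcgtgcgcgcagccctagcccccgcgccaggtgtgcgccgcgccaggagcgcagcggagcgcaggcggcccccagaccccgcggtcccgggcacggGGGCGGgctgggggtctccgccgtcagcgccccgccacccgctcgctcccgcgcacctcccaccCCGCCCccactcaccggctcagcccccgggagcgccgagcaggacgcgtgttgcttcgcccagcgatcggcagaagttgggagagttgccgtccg
Kmt2c, chr5:25498734-25499033, minus strand: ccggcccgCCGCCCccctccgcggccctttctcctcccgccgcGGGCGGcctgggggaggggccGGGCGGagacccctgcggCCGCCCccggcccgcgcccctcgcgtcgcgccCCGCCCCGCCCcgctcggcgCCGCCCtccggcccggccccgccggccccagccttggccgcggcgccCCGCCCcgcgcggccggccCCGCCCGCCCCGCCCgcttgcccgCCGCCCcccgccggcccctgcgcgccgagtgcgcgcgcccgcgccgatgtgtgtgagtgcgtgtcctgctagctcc
Kdm5b, chr1:134559928-134560227, plus strand: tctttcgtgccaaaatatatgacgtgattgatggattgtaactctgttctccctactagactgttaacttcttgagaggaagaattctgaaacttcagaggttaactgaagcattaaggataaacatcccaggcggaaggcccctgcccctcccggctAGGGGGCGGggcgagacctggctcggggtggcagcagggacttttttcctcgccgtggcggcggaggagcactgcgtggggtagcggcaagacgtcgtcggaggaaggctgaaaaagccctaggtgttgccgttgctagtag
Hdac7, chr15:97831446-97831745, minus strand: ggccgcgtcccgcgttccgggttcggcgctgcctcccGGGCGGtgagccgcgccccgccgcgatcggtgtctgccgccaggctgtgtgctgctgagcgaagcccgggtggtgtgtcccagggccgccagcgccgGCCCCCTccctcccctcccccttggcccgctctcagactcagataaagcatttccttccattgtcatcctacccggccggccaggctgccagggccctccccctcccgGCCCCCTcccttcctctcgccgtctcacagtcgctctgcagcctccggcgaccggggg
Setd7, chr3:51560774-51561073, minus strand: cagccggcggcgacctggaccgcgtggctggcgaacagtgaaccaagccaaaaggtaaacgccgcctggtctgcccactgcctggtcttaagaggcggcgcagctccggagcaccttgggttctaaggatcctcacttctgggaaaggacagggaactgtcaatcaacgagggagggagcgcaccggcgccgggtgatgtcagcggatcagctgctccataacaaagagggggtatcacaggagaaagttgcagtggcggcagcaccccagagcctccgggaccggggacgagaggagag
The Kmt2c window held 12 GC boxes at 88% G and C, that of Prmt8 2 at 79%, that of Kdm5b 1 at 54.7%, that of Hdac7 1 at 73.7%, and that of Setd7 none at 62.7%. In Kdm5b the GC box overlaps the single AGGGGGC. The Hdac7 window held 2 AGGGGGC, and the other 3 windows none. The further Hdac7 windows, not shown, held neither a GC box nor AGGGGGC, at 54.7%, 65.7% and 60.7% G and C. The further Prmt8 window held 2 GC boxes at 78.7%. Other motifs searched on both strands were CACGTG (the E box bound by Myc and its partners), CCAAT and ATTTGCAT (the octamer). None of them lies in the 5 windows shown.

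Over the whole set, 55 of the 67 genes had 76 such windows. A GC box lay in 63.2% of them, against 49.2% of the 19177 windows of all genes tested. AGGGGGC lay in 18.4% against 13.9%, CCAAT in 40.8% against 37.4%, the E box in 9.2% against 8.2%, and the octamer in 1.3% against 1.6%. The enzyme genes' windows were also richer in G and C, with a median of 61.3% against 57.3%, and in CpG, with an observed over expected ratio of 0.812 against 0.612. These shares describe letters and not binding. Myc itself rose, with a log2 change of 1.11 (SE 0.12, adjusted p = 0.000633 in limma).

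**Figure D1:**
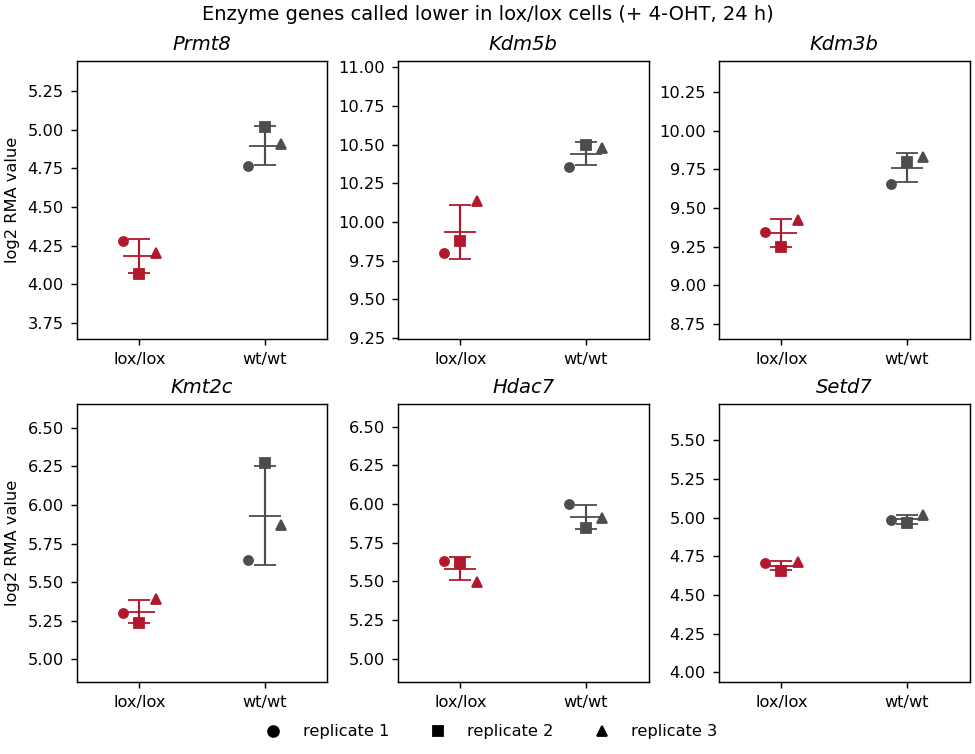
Log2 RMA values (vertical axis, each panel spanning the same range of log2 units) of the 6 enzyme genes called lower, with lox/lox arrays in red and wt/wt arrays in grey. Symbols are replicates, the wide bar is the mean and the error bar the SD (n = 3). In each panel the 3 lox/lox arrays lie below the 3 wt/wt arrays, as in 12.7% of all genes, and the 6 genes were picked by their call. Kmt2c has the widest spread in wt/wt cells, with an SD of 0.32.

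Among the 8 genes grouped by name as H3K4 methyltransferases, the Kmt2 and Setd1 genes and Setd7, Kmt2c and Setd7 fell. The other 6 of the 8 did not pass. The grouping rests on names, and activity was not checked for each gene. The share called was 25% of this small group, against 3.61% of all genes and 5.93% of those above 4.90 for lower calls. Kmt2c (MLL3), which with Kmt2d places monomethylation on H3K4 at enhancers, stood at 5.30, 5.24 and 5.39 in lox/lox replicates 1 to 3, against 5.64, 6.27 and 5.87 in wt/wt replicates 1 to 3. Every lox/lox array was below every wt/wt array, and wt/wt replicate 2 was the highest. The level was 1.54-fold lower, with a log2 change of -0.62 (SE 0.14, adjusted p = 0.0258 in limma). This call was lost without any 1 of the lox/lox arrays or without wt/wt replicate 3 (adjusted p up to 0.115), and without both arrays that stood apart (adjusted p = 0.0536).

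Setd7, which methylates H3K4 and several non-histone proteins, had the tightest arrays of the 6 genes. It stood at 4.70, 4.65 and 4.71 in lox/lox replicates 1 to 3, against 4.98, 4.96 and 5.02 in wt/wt replicates 1 to 3. These values lie near the median of all probe sets, where background makes up part of the signal. The gene fell 1.23-fold (log2 change -0.30, SE 0.07, adjusted p = 0.036 in limma), and its call was lost whichever of the 6 arrays was left out (adjusted p up to 0.142).

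The other enhancer and promoter H3K4 methyltransferases did not pass. Kmt2d (MLL4), the partner enzyme of Kmt2c, stood at 6.61 ± 0.06 in lox/lox cells, against 6.62 ± 0.16 in wt/wt cells (SD, n = 3), a log2 change of -0.004 with a 95% interval of -0.21 to 0.21. Kmt2a (MLL1), which acts at Hox genes, had a log2 change of -0.07 (-0.24 to 0.11). Kmt2b (MLL2), needed for H3K4 methylation of poised promoters, stood lower on all 3 lox/lox arrays, at 6.97 to 7.08 against 7.11 to 7.26 in wt/wt cells. Its log2 change of -0.17 (-0.34 to 0.004) did not pass (adjusted p = 0.292). Setd1a, the catalytic subunit of a general promoter H3K4 complex, had a log2 change of 0.07 (-0.10 to 0.23).

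The remaining Kmt and Setd genes, which act on other lysines or, in the case of Setd3, on actin, had no call. None of the 8 genes passed in limma, and none had an unadjusted p under 0.05 (against 18% of all genes). Setd2, which trimethylates H3K36 in transcribed genes, had a log2 change of 0.02 (-0.19 to 0.23), and its second probe set one of 0.04. Kmt5a, the monomethyltransferase of H4K20, stood at -0.03 (-0.26 to 0.19). The lowest and highest changes of these 8 genes were -0.19, for Setd5, and 0.10, for Setd3.

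Within the arginine methyltransferases 1 of 8 genes fell (12.5%, against 3.61% of all genes called lower), and it had the largest change of all 67. Prmt8, a membrane-anchored enzyme known mainly from brain, stood at 4.28, 4.07 and 4.201 in lox/lox replicates 1 to 3, against 4.77, 5.02 and 4.91 in wt/wt replicates 1 to 3. The groups were well apart, although in both genotypes the mean lay below 4.90. The level was 1.64-fold lower (log2 change -0.71, SE 0.09, 95% interval -0.92 to -0.51, adjusted p = 0.00139 in limma). It was the 1 enzyme gene that passed whichever of the 6 arrays was left out (adjusted p up to 0.0111).

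The main enzymes of this family had small changes. Prmt1, which makes most asymmetric dimethylarginine, stood at 9.83 ± 0.01 in lox/lox cells, against 9.83 ± 0.06 in wt/wt cells (SD, n = 3), a log2 change of -0.005 (-0.17 to 0.16). Prmt5, the main source of symmetric dimethylarginine, was at 10.02 to 10.11 on the lox/lox arrays and 10.18 to 10.21 on the wt/wt arrays. These groups did not overlap, yet the log2 change was -0.12 (-0.28 to 0.04) and did not pass (adjusted p = 0.454).

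**Figure D2:**
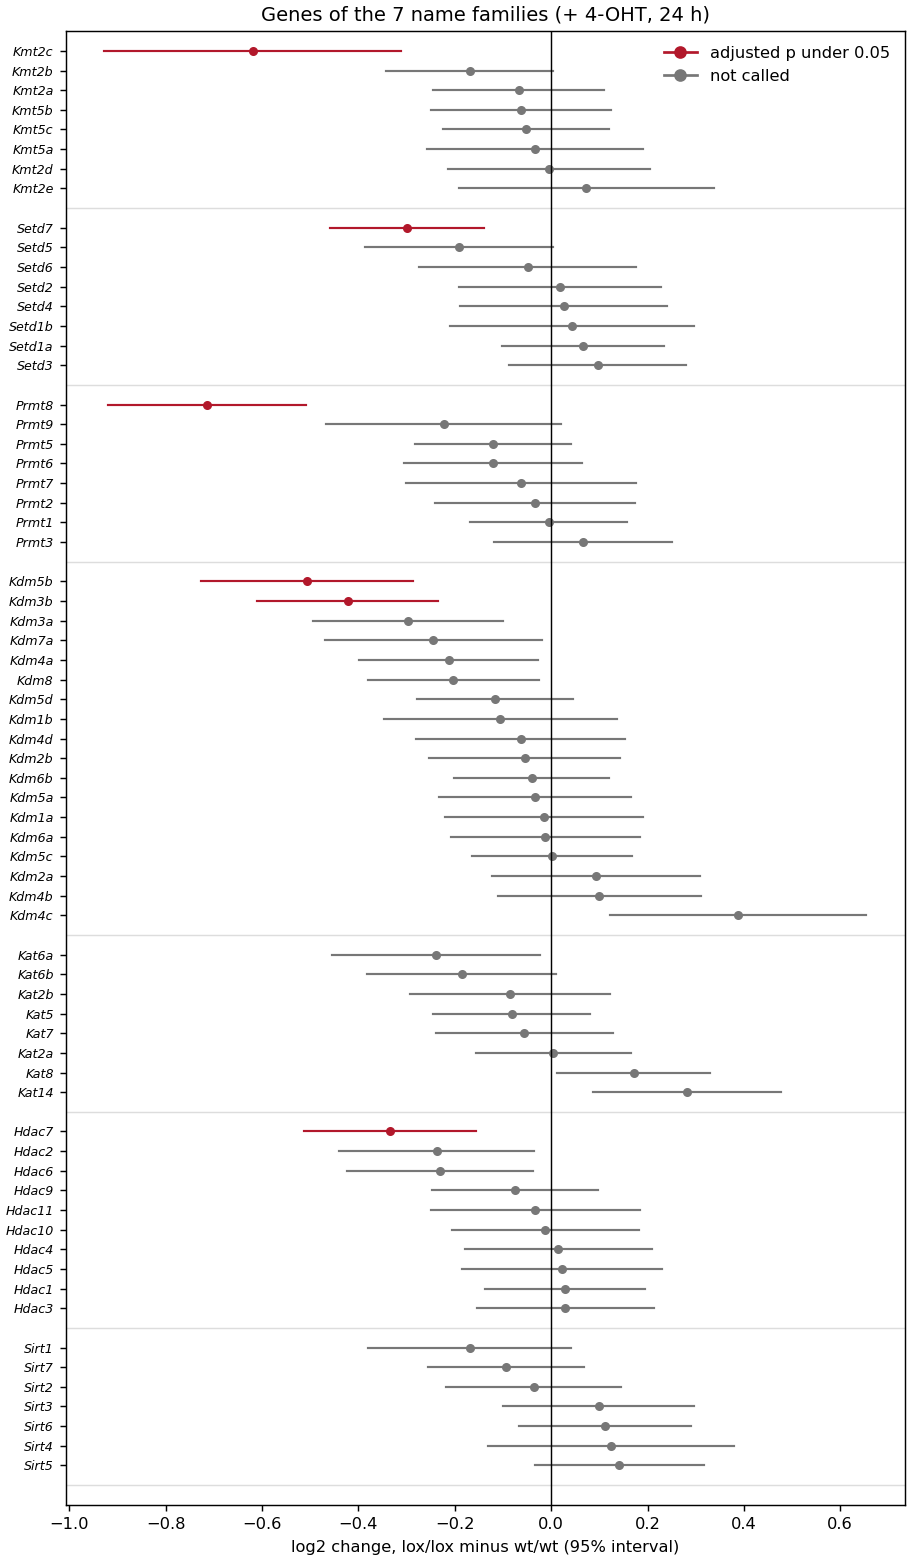
Log2 change, lox/lox minus wt/wt (horizontal axis), of all 67 enzyme genes with 95% intervals from limma, ordered by size within each name family. The 6 called genes, in red, all lie to the left of 0. Within a 1.5-fold change either way lie 62 of the 67 intervals, near the share among all genes (93%).

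Lysine demethylases of the JmjC type had 2 lower genes out of 16 (12.5%). For lower calls the share was 3.61% of all genes and 5.93% of those above 4.90. Kdm5b, which removes methyl groups from H3K4 and is highly expressed in ES cells, stood at 9.80, 9.87 and 10.13 in lox/lox replicates 1 to 3, against 10.35, 10.50 and 10.48 in wt/wt replicates 1 to 3. The groups did not overlap, and lox/lox replicate 3 was nearest to the wt/wt arrays. Its level was 1.42-fold lower (log2 change -0.51, SE 0.10, adjusted p = 0.0131 in limma). The call was lost without lox/lox replicate 2 or wt/wt replicate 3 (adjusted p up to 0.0709) and kept without both arrays that stood apart (adjusted p = 0.0185).

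Kdm3b, an H3K9 demethylase, was the other. Its values were 9.35, 9.25 and 9.43 in lox/lox replicates 1 to 3, against 9.66, 9.80 and 9.83 in wt/wt replicates 1 to 3. The gene fell 1.34-fold (log2 change -0.42, SE 0.08, adjusted p = 0.0152 in limma). The call was lost without lox/lox replicate 2 or wt/wt replicate 2 or 3 (adjusted p up to 0.0808), and without both arrays that stood apart (adjusted p = 0.0581). Kdm3a, its close relative and likewise an H3K9 demethylase, was at 8.41, 8.52 and 8.56 in lox/lox replicates 1 to 3, against 8.65, 8.89 and 8.84 in wt/wt replicates 1 to 3. Its groups did not overlap either, but its log2 change of -0.30 (-0.49 to -0.10) did not pass (adjusted p = 0.087). Kdm3a did pass in 3 other fits, with array weights, with a trended and robust eBayes and without wt/wt replicate 1.

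The other demethylase genes had no call, and most had a change below 0. Of the 18 Kdm genes, called ones included, 4 had a change above 0. An unadjusted p under 0.05 was found in 7 (38.9%, against 18% of all genes), all of them lower but Kdm4c. Of the 18 Kdm genes 16 lay above 4.90, whereas the 18% covers genes of every level. Kdm4c stood at 8.11, 8.10 and 8.53 in lox/lox replicates 1 to 3, against 7.82, 7.97 and 7.79 in wt/wt replicates 1 to 3. This was the largest increase among the 67 genes, with lox/lox replicate 3 the highest (log2 change 0.39, 95% interval 0.12 to 0.65, adjusted p = 0.0969 in limma). Kdm4a, of the same family, was lower on all lox/lox arrays, at 8.70 to 8.85 against 8.88 to 9.07 (log2 change -0.21, adjusted p = 0.201). Kdm2b, which brings a Polycomb complex to CpG islands, had a log2 change of -0.06 (-0.25 to 0.14). Kdm1a (LSD1), which erases H3K4 methylation at enhancers when ES cells differentiate, stood at 9.98 ± 0.16 in lox/lox cells, against 10.00 ± 0.02 in wt/wt cells (SD, n = 3), a log2 change of -0.02 (-0.22 to 0.19).

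The sex-linked demethylases differed little. Kdm5c, an X-linked H3K4 demethylase, stood at 9.13, 9.03 and 9.13 in lox/lox replicates 1 to 3, against 9.08, 9.14 and 9.07 in wt/wt replicates 1 to 3. Its log2 change was 0.002 (-0.16 to 0.17). Kdm6a (UTX), the X-linked demethylase of H3K27, had a log2 change of -0.01 (-0.21 to 0.18). Kdm5d lies on the Y chromosome, which female cells lack, so its probe set was taken to read background. It stood at 3.68, 3.61 and 3.60 in lox/lox replicates 1 to 3, against 3.78, 3.73 and 3.73 in wt/wt replicates 1 to 3. Even here the groups did not overlap, with a log2 change of -0.12 (-0.28 to 0.05, adjusted p = 0.474).

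Of the 10 histone deacetylase genes 1 fell (10%, against 3.61% of all genes called lower and 5.93% of those above 4.90). Hdac7, a class IIa enzyme known from thymocytes and blood vessels, stood at 5.63, 5.62 and 5.50 in lox/lox replicates 1 to 3, against 5.999, 5.84 and 5.91 in wt/wt replicates 1 to 3. The groups did not overlap, and the level was 1.26-fold lower (log2 change -0.33, SE 0.08, adjusted p = 0.0359 in limma). The call was lost whichever of the 6 arrays was left out (adjusted p up to 0.114). With the replicate number as a block, the adjusted p was 0.0646 for Hdac7 and 0.0875 for Setd7.

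The class I deacetylases, the catalytic core of the Sin3, NuRD, CoREST and NCoR complexes, had no call. Hdac1 stood at 11.17 ± 0.05 in lox/lox cells, against 11.14 ± 0.04 in wt/wt cells (SD, n = 3), a log2 change of 0.03 (-0.14 to 0.19), and its second probe set had one of 0.04. Hdac2, which can stand in for Hdac1, was at 10.37, 10.20 and 10.48 in lox/lox replicates 1 to 3, against 10.56, 10.67 and 10.53 in wt/wt replicates 1 to 3. It was lower on all 3 lox/lox arrays, but its log2 change of -0.24 (-0.44 to -0.04) did not pass (adjusted p = 0.19). Hdac3, the enzyme of NCoR, had a log2 change of 0.03 (-0.15 to 0.21).

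Acetyltransferases and sirtuins had no call in limma. Of the 8 Kat genes, 3 had an unadjusted p under 0.05 (37.5%), and of the 7 Sirt genes none did, against 18% of all genes. All of these Kat and Sirt genes lay above 4.90, whereas the 18% covers genes of every level. Kat14, a subunit of the ATAC complex, stood at 8.27, 8.24 and 8.39 in lox/lox replicates 1 to 3, against 8.01, 8.14 and 7.90 in wt/wt replicates 1 to 3. All lox/lox arrays were above all wt/wt arrays, and the log2 change of 0.28 (0.09 to 0.48) had an adjusted p of 0.1. Kat8 (MOF), which acetylates H4K16, was also higher on each lox/lox array, at 8.06 to 8.11 against 7.89 to 7.94 (log2 change 0.17, adjusted p = 0.237). Kat6a (MOZ), an H3 acetyltransferase, was the third, and lay lower on each lox/lox array, at 6.93 to 7.19 against 7.27 to 7.46 (log2 change -0.24, adjusted p = 0.219). Of the 8 Kat genes 5 had a change below 0.

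The remaining named acetyltransferases lay close to 0. Kat2a (GCN5), of the SAGA and ATAC complexes, had a log2 change of 0.005 (-0.15 to 0.16), Kat5 (TIP60) one of -0.08 (-0.24 to 0.08) and Kat7 (HBO1), which acts at replication origins, one of -0.06 (-0.24 to 0.13). Among the sirtuins, Sirt1, a nuclear deacetylase of histones and p53, stood at 7.92 ± 0.12 in lox/lox cells, against 8.09 ± 0.12 in wt/wt cells (SD, n = 3), and its groups overlapped (log2 change -0.17, -0.38 to 0.04). Sirt6, which acts on H3K9 acetylation, had a log2 change of 0.11 (-0.07 to 0.29). Sirt1 and Sirt5 had the smallest p-values of the family, equal after rounding (adjusted p = 0.41 each in limma). Sirt5 was higher on each lox/lox array (log2 change 0.14, -0.03 to 0.32).

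Viewed as a set, the 67 genes leaned to the lower side by small amounts. Their median log2 change was -0.05, against -0.01 for all genes, and 22 of them (32.8%) had a change above 0, against 47.5% of all genes. Among genes above 4.90 the medians were -0.04 for enzyme genes and -0.01 for all, and 36.1% against 46.5% had a change above 0. At an unadjusted p under 0.05 stood 16 enzyme genes (23.9%, against 18% of all genes), 13 lower and 3 higher. The 18% covers genes of every level, whereas 61 of the 67 enzyme genes lay above 4.90. The lox/lox arrays lay wholly below the wt/wt arrays in 16 enzyme genes (23.9%, against 12.7% of all genes) and wholly above in 4 (5.97%, against 10.1%), so that 29.9% were separated either way, against 22.8% of all genes. Above 4.90 the share wholly below was 21.3% of enzyme genes and 17.8% of all genes. The median of the 67 genes was -0.01 without lox/lox replicate 1. No test of the set as a whole was made, and the arrays were normalised on the assumption of a like overall distribution.

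**Figure D3:**
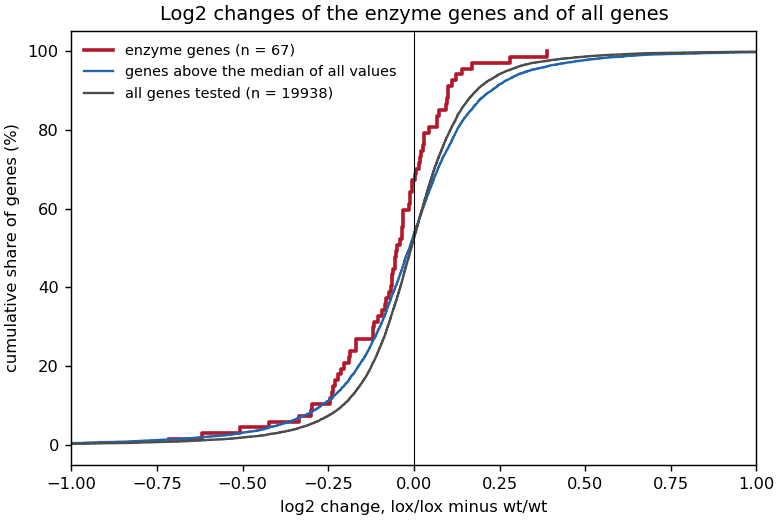
Cumulative share of genes (vertical axis, %) against the log2 change, lox/lox minus wt/wt (horizontal axis, drawn from -1 to 1), for the 67 enzyme genes in red, genes with a mean above 4.90 in blue and all 19938 genes in grey. The red curve lies above the others at a change of 0, where 45 of the 67 genes are on the lower side.

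Close relatives did not always change alike. The pairs that follow were chosen after their values were seen and have no test. Within each array the value of the second gene was subtracted from that of the first, and the lox/lox mean was compared with the wt/wt mean. This gap was lower by 0.62 log2 units in lox/lox cells for Kmt2c minus Kmt2d (log2 difference -0.62), and by 0.47 for Kdm5b minus Kdm5a (-0.47). It was higher by 0.60 for Kdm4c minus Kdm4a, and the log2 difference was -0.27 for Hdac2 minus Hdac1. In these 4 pairs the lox/lox and wt/wt arrays did not overlap. Nor did they for Kmt2c, Kdm5b, Kdm4c and Hdac2 alone, so separation of the pairs adds little. Of all single genes, 22.8% had arrays that did not overlap. For Kdm3b minus Kdm3a the difference was -0.13 and the arrays overlapped. Where a gene had more than 1 probe set, as 7 genes did, none of these probe sets was called. Those of Hdac4, Kdm7a, Kmt2d and Setd3 differed in sign.

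The enzymes' partner subunits and enzymes with other names were also counted by complex. Of 34 measured histone-modifying enzymes with other names, 3 fell and none rose (8.82% called). The share was 6.16% of all genes and 10% of those above 4.90, where 31 of the 34 lay. Their median log2 change was -0.02, and 9 had an unadjusted p under 0.05 (26.5%, against 18% of all genes). Ncoa3, a nuclear receptor coactivator that supports the ES cell network, stood at 8.25, 8.12 and 8.22 in lox/lox replicates 1 to 3, against 8.53, 8.87 and 8.75 in wt/wt replicates 1 to 3 (log2 change -0.52, SE 0.10, adjusted p = 0.0105 in limma). Its relative Ncoa1 fell by 0.35 on the log2 scale (adjusted p = 0.0305), and the muscle methyltransferase gene Smyd1, a dim gene, by 0.58 (adjusted p = 0.0307). None of the 3 passed in each fit without 1 array, with adjusted p up to 0.0604, 0.107 and 0.112 for Ncoa3, Ncoa1 and Smyd1.

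Subunits of the Kmt2 and Setd1 complexes had no call. Of 13 measured, none passed in limma, against 6.16% of all genes and 10% of those above 4.90, where all 13 lay. An unadjusted p under 0.05 was found in 5 (38.5%, against 18% of all genes, whatever their level). The median log2 change of the 13 was -0.06. Among 42 partners of acetyltransferases 2 fell (4.76%, against 6.16% of all genes and 10% of those above 4.90, where all 42 lay), with a median of -0.03. Tada3, which anchors Kat2a in SAGA and ATAC, stood at 7.18, 7.27 and 7.32 in lox/lox replicates 1 to 3, against 7.60, 7.82 and 7.80 in wt/wt replicates 1 to 3. It fell 1.40-fold (log2 change -0.49, SE 0.09, adjusted p = 0.00816) and passed in each fit without 1 array. Taf6l, a structural subunit of SAGA, was 1.42-fold lower (log2 change -0.50, adjusted p = 0.00899), and lost its call without lox/lox replicate 2 (adjusted p = 0.0523).

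Partners of Hdac1, Hdac2 and Hdac3 changed in both directions. Of 32 measured, 2 rose and 3 fell (15.6%, against 6.16% of all genes and 10% of those above 4.90, where 31 of the 32 lay), with a median of -0.06. Rbbp7, an X-linked histone-binding subunit shared by Sin3 and NuRD, stood at 11.54, 11.59 and 11.60 in lox/lox replicates 1 to 3, against 11.14, 11.11 and 11.10 in wt/wt replicates 1 to 3. It rose 1.37-fold (log2 change 0.46, SE 0.07, adjusted p = 0.00407 in limma) and passed in each fit without 1 array. Mideas, of a mitotic deacetylase complex, had a log2 change of 0.37 (adjusted p = 0.0399). The scaffold genes Sin3b and Rcor1 and the NuRD gene Mta3 fell by 0.40, 0.41 and 0.37 on the log2 scale (adjusted p = 0.0175, 0.0238 and 0.0371). These 4 calls were each lost in 2 or more of the fits without 1 array, with adjusted p up to 0.163 for Mideas, 0.0878 for Sin3b, 0.103 for Rcor1 and 0.142 for Mta3. Without both arrays that stood apart, 2 of the 10 called partners and other enzymes passed, Rbbp7 (adjusted p = 0.0351) and Taf6l (adjusted p = 0.0396), while Tada3 was at the threshold (adjusted p = 0.05).

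**Figure D4:**
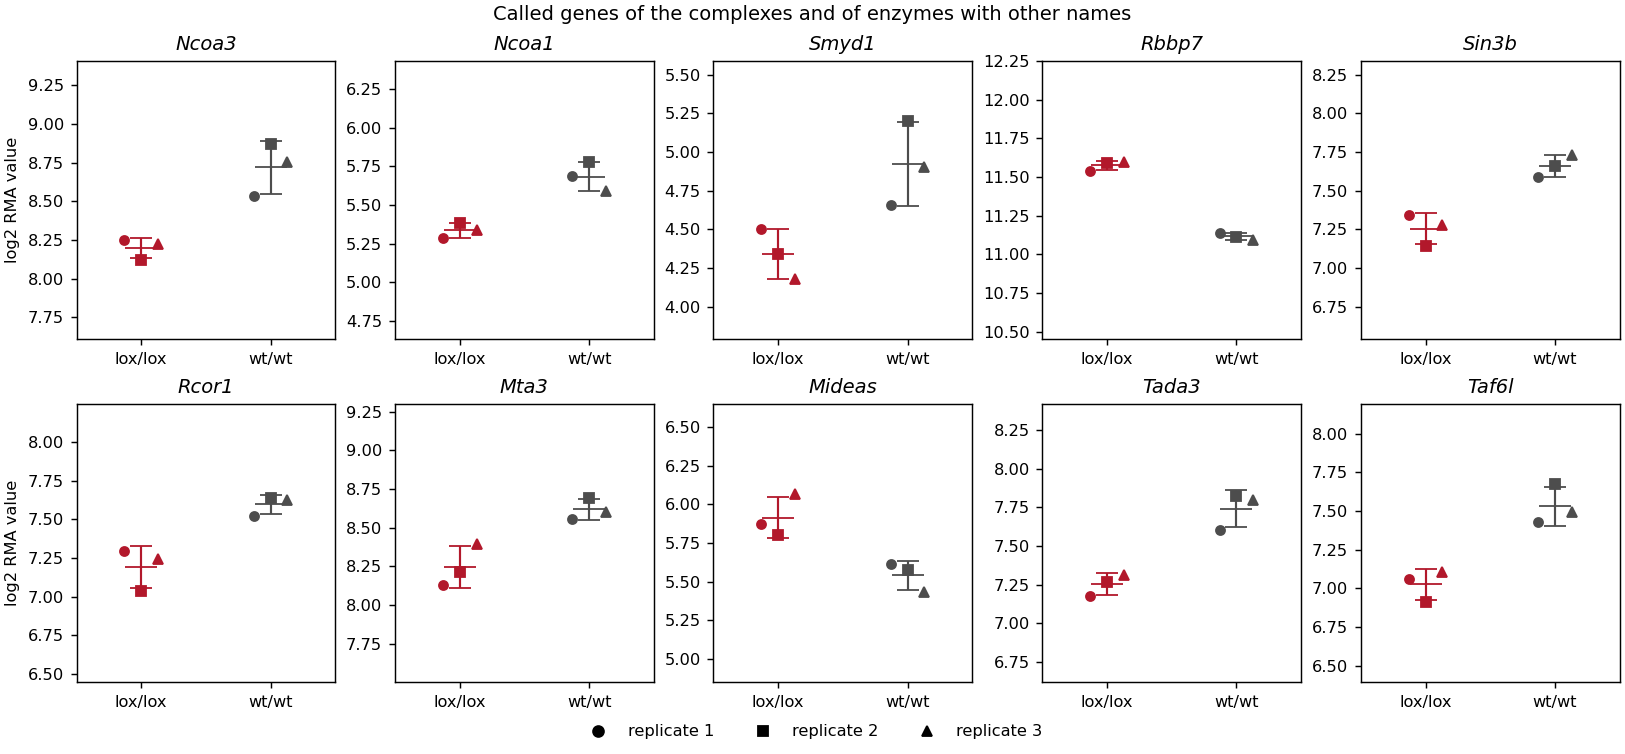
Log2 RMA values (vertical axis) of the 10 called genes among enzymes with other names and partner subunits, lox/lox arrays in red left of wt/wt arrays in grey, with the mean and SD (n = 3). Rbbp7 and Mideas are higher on every lox/lox array, and the other 8 are lower on every lox/lox array. The genes were picked by their call, and 22.8% of all genes had arrays that did not overlap.

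Most calls among the 67 genes were lost in some fits without 1 array. The direction of the 6 called genes could not turn in these fits, because every lox/lox array lay below every wt/wt array. The log2 change ranged from -0.31 to -0.28 for Setd7, from -0.37 to -0.29 for Hdac7, from -0.47 to -0.38 for Kdm3b, from -0.61 to -0.44 for Kdm5b, from -0.78 to -0.66 for Prmt8 and, the widest, from -0.76 to -0.45 for Kmt2c. These fits have fewer arrays, and calls over all genes were also fewer, 626 to 1132 against 1228 with all 6 arrays. The number called was 3 without lox/lox replicate 1 or wt/wt replicate 2, and 1, Prmt8, without lox/lox replicate 2 or wt/wt replicate 3. It was 4 without lox/lox replicate 3, of which 3 were among the 6 and Prmt9 was an addition. Without wt/wt replicate 1 it was 5, of which 4 were among the 6 and Kdm3a was an addition. Prmt8 and Kdm5b, 2 genes, were called when both arrays that stood apart were left out, a setting added once the data had been seen. All calls made in these fits were lower in lox/lox cells.

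**Figure D5:**
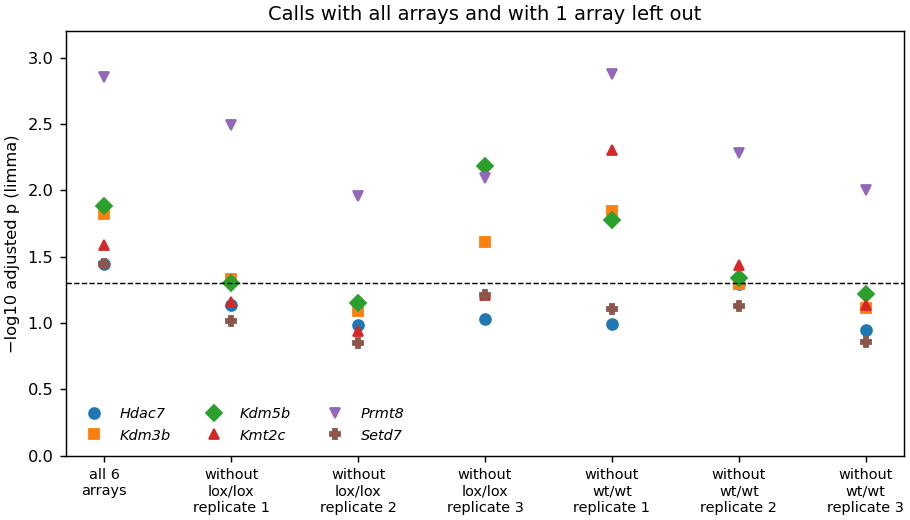
Size of the adjusted p from limma (vertical axis, −log10) for the 6 called enzyme genes with all 6 arrays and with each array left out in turn. The dashed line is the threshold of 0.05, and Prmt8 is the gene that stays above it in every column.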

How the data were processed

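The authors deposited log2 values for 35556 probe sets of 6 Affymetrix Mouse Gene 1.0 ST arrays. Per the submitters' processing notes they used RMA and affy, whose versions and settings, like the genome build, the sources used here do not state. RMA corrects background, normalises and summarises the probes of a set, so weak genes stay above 0, their changes are understated, and a change in total RNA per cell cannot be seen.

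Names came from the platform annotation, in which 21789 probe sets had 1 gene symbol, 1621 several and 12146 none listed, and only the first were used. All 67 symbols matched the RefSeq table by Entrez ID. Each gene was represented by its probe set with the highest mean. Genotypes were compared on all 19938 genes in limma 3.58.1 under R 4.3.3, as lox/lox minus wt/wt with lmFit, eBayes and no covariate, with Benjamini-Hochberg adjustment, and intervals are at 95%. No dim genes were removed. The code was tested on simulated data.

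The text names called genes, a fixed set of main enzymes, called partner genes and Rad21, Myc, Pou5f1, Sox2 and Nanog. Further genes were named after their values were seen: Kdm3a, Kdm4a, Kdm4c, Kdm5a, Setd3, Setd5, Prmt9, Sirt5, Kat6a, Vim, Dcn, Kdm7a, Hdac4, Lum, Klf4 and Esrrb. The genes and lists were chosen with earlier results of these data known.

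Replicate numbers are shared by the genotypes, but deviations of same-numbered arrays correlated at 0.101, -0.228 and -0.103, so they were not taken as pairs. Alternatives were other normalizations, a filter on dim genes, array weights, other treatment of probe sets, a trended robust eBayes, the replicate block, each array left out, and stricter thresholds.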

Additional observations from a re-analysis of the deposited data

How the results depend on the processing

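Rad21 kept its direction and call in every setting. The number of enzyme genes called, 6, was 8 with quantile normalization, cyclic loess or array weights, 6 with median centring, all probe sets, the mean of probe sets or eBayes with trend and robust (where 4 of the 6 were the same genes), and 4 with a filter on dim genes or the replicate block. The filter removed Prmt8 and Setd7, which then have no value. Higher enzyme genes numbered 2 with quantile normalization or cyclic loess and 1 with trend and robust or array weights, against 0, and were Kdm4c, Kat14 or both. Leaving out 1 array gave 1 to 5 enzyme genes called, 1 to 5 of them lower, medians of -0.059 to -0.014, and 626 to 1132 calls over all genes, against 1228. Without both arrays that stood apart these were 2 enzyme genes, 2 lower, and 697 of all genes. At an adjusted p under 0.01 they were 1, 1 and 553, and at a change of at least 1.5-fold 2, 2 and 451. The replicate block ended the calls of Hdac7 and Setd7 and no other call among the 67 genes. Of the 10 partner and other enzyme genes called, 7 passed with the block, and Mideas, Mta3 and Ncoa1 did not (adjusted p = 0.0697, 0.0506 and 0.0542). Same-numbered samples share only a number.

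Reversals concerned uncalled genes with a change near 0. With quantile normalization the log2 changes were 0.011 for Kdm1a, 0.017 for Kdm6a, 0.021 for Kmt2d and 0.039 for Prmt1, and with cyclic loess 0.0047, 0.012, 0.0023 and 0.016. Median centring gave -0.014 for Kat2a, -0.017 for Kdm5c and -7e-04 for Setd2. The mean of probe sets gave 0.056 for Kmt2d, and array weights -0.005 for Hdac3, 0.0026 for Prmt1 and -0.0052 for Setd2. Without both arrays that stood apart, values were -0.012 for Hdac1, -0.020 for Hdac3, 0.045 for Kmt2d and 0.031 for Prmt1. Leaving out 1 array gave ranges of -0.11 to 0.040 for Kdm1a, -0.016 to 0.035 for Kdm5c, -0.088 to 0.028 for Kdm6a, -0.091 to 0.072 for Kmt2d, -0.12 to 0.046 for Kmt5a, -0.12 to 0.011 for Kdm2b, -0.035 to 0.068 for Hdac3, -0.031 to 0.024 for Prmt1, -0.058 to 0.088 for Setd2 and -0.017 to 0.023 for Kat2a. The cause was not tested.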
